A study of Mus musculus with 4 samples.

Results

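A set of 8 genes of prostaglandin and eicosanoid metabolism was followed in sorted endothelial cells of the mouse aorta and lung: Ptgs1, Ptgs2, Ptgis, Slco2a1, Hpgd, Ephx2, Cyp1b1 and Cyp4b1. They were chosen by name, and all 8 of 8 were found among the 31053 genes of each matrix. Each tissue and genotype gave 1 droplet library of single-cell RNA, 4 in all, from female Apoe knockout mice of the C57/B6J strain that carried an endothelial eYFP lineage tracer and ate a Western diet for 5 weeks. Oct4 was wild-type in the endothelium of 2 of the mice and knocked out there in the other 3, and the cells of each genotype went into 1 library per tissue, so mice cannot be told apart. The aorta was taken with its arch, thoracic and abdominal parts, the lung as its left lobe, and cells were released in buffers with 1 µg/mL actinomycin D, a transcription blocker, and sorted as eYFP-positive against a gate set on littermates without the Cdh5 driver. The Apoe deletion and the diet were shared by all 4 groups, so neither can be compared with its absence.

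Eicosanoids are signalling lipids made from arachidonic acid. The cyclooxygenases Ptgs1 (constitutive) and Ptgs2 (inducible) make prostaglandin endoperoxide, which Ptgis turns into prostacyclin, the vasodilator and platelet inhibitor for which endothelium is known. Prostaglandins are taken up by the transporter Slco2a1 and inactivated inside the cell by the dehydrogenase Hpgd, a clearance for which the lung circulation is known. Cytochrome P450 enzymes form a parallel arm: some make epoxides of arachidonic acid, and the soluble epoxide hydrolase Ephx2 opens these to diols. Cyp1b1 oxidises oestrogens, xenobiotics and fatty acids and is a target of the aryl hydrocarbon receptor, and Cyp4b1 is a lung-enriched member of the fatty acid hydroxylase family.

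The promoters of the members that differed most between the tissues are shown first, as the 250 bases before the RefSeq start (GRCm38.p6), 5′ to 3′ on the gene's strand. RefSeq promoters matched 6 of the 8 members, and Ptgis and Ephx2 are named only. The Slco2a1 start used by RefSeq lies inside the longer GENCODE M21 gene, so its window is that of 1 of its transcripts. The first 3 genes were higher in lung than in aorta and the fourth was higher in aorta. Capitals mark TATAAA, the TATA box, and GCGTG, the core of the aryl hydrocarbon receptor site, on either strand (on the opposite strand GCGTG reads CACGC).
Hpgd, chr8:56294302-56294551, plus strand: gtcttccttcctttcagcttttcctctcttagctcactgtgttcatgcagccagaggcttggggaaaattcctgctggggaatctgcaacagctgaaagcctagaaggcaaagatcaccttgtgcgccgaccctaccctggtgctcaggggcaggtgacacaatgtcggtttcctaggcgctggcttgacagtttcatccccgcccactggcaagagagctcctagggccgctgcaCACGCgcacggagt
Slco2a1, chr9:103008237-103008486, plus strand: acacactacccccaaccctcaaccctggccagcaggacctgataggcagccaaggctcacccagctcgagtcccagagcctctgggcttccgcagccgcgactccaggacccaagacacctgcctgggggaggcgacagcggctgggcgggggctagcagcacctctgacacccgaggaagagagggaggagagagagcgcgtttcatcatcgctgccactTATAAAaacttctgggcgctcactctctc
Cyp4b1, chr4:115647722-115647971, minus strand: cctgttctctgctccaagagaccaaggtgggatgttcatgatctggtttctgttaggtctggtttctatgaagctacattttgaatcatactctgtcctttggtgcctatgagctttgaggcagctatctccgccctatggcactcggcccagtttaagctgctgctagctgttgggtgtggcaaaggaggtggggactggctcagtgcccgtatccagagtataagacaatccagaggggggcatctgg
Cyp1b1, chr17:79715062-79715311, minus strand: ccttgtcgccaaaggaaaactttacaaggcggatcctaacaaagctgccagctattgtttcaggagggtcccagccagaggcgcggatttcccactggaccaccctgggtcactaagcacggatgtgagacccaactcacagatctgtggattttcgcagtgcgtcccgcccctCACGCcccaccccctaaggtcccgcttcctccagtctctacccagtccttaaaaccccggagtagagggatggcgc
TATAAA was found in the Slco2a1 promoter, starting 29 bases before the start, and in none of the other 5 members' promoters; 12.4% of all 32851 promoters of this length hold it on either strand. GCGTG was found once each for Hpgd, Ptgs2 and Cyp1b1, against 28.2% of all promoters. The forkhead core TAAACA (3952 of the promoters in all) was in none of the 6. The ETS core GGAA was present in 5 of the 6, all but Cyp4b1, and in 93.4% of all promoters. All 4 motifs were searched on both strands, and the matches describe the letters of the windows only. In mm10 the genes lie at chr8:56294585-56321043 (Hpgd), chr9:102988712-103096002 (Slco2a1), chr2:36230426-36252272 (Ptgs1), chr1:150100031-150108227 (Ptgs2), chr2:167191805-167240604 (Ptgis), chr14:66084374-66124500 (Ephx2), chr17:79701537-79715061 (Cyp1b1) and chr4:115624725-115647723 (Cyp4b1).

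The libraries held 1034161 UMIs (unique molecule counts) in 449 barcodes for the wild-type aorta, 4483756 in 1623 for the knockout aorta, 1506574 in 800 for the wild-type lung and 1052504 in 529 for the knockout lung. Cells with at least 500 UMIs and at most 15% mitochondrial UMIs were kept, which left 404, 1569, 775 and 508 cells with median depths of 2090, 2325, 1662 and 1732 UMIs. Any 2 libraries shared at most 2 barcodes. Transcripts of the targeted gene, Pou5f1 (Oct4), were at 0, 1, 2 and 1 UMIs, which is too few to check the genotype labels. Levels below are CPM, the gene's UMIs scaled to a total of 1e6, over the blood endothelial-like cells, that is the endothelial clusters without the lymphatic one: 356, 1332, 704 and 470 cells. All 12 of the endothelial markers used were detected in each pool. Marker UMIs of other cell types were present too: fibroblast markers (6, 7, 5 and 1 of 8 detected) summed to 451, 1214, 8.30 and 1.13 CPM and smooth muscle markers to 474 and 761 CPM in the aortic libraries and to 124 or less in the lung. Erythroid markers reached 2785 CPM in wild-type aorta and at most 84.4 in the others, and epithelial markers to 449 CPM in the knockout lung and to 175 CPM or less elsewhere. With 1 library per group there is no replicate, no test and no p-value: intervals in brackets are exact 95% intervals that cover counting error only, and differences between libraries can be differences between preparations.

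In the synthesis arm, the prostacyclin synthase Ptgis was an aortic gene in these libraries and the cyclooxygenase Ptgs1 was shared by both tissues. Ptgis stood at 361 CPM in wild-type and 337 CPM in knockout aorta, and at 24.9 and 24.8 CPM in the lungs of these genotypes. The aortic levels did not overlap the lung levels: Ptgis was 14.5-fold lower in lung in the wild-type (10.1 to 21.4) and 13.6-fold lower in the knockout (8.95 to 21.8). Ptgs1 was at 274, 247, 193 and 161 CPM in that order, a 1.42-fold (1.19 to 1.70) and 1.53-fold (1.29 to 1.84) lower level in lung. Ptgs2 was low everywhere, at 18.3, 26.7, 20.4 and 38.3 CPM from 16, 102, 27 and 34 UMIs. Single cells weighed heavily in it: 1 cell held 43.8% of the Ptgs2 UMIs of the wild-type aorta and 1 cell 38.2% of those of the knockout lung. Its lung to aorta ratio of 1.43 in the knockout (0.942 to 2.13) had an interval that includes 1.

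The uptake and breakdown genes had the opposite placement. The dehydrogenase Hpgd was at 9.16 CPM (8 UMIs) in the wild-type aorta and 17.3 (66 UMIs) in the knockout aorta, against 3438 and 3077 CPM in the wild-type and knockout lung. This was a 375-fold (190 to 870) and 178-fold (140 to 231) higher level in lung, the widest separation of the 8 genes in the direction of the lung. After thinning every cell to 1000 UMIs, Hpgd was detected in 87.7% of 576 wild-type and 88.2% of 355 knockout lung cells, and in 1.37% of 292 and 1.30% of 1230 aortic cells. The transporter Slco2a1 was at 180, 247, 975 and 1005 CPM, so it was present in both tissues and 5.42-fold (4.59 to 6.44) and 4.06-fold (3.70 to 4.46) higher in lung.

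In the P450 arm, Ephx2 and Cyp1b1 were near absent from lung endothelium and Cyp4b1 was high in it. Ephx2 was at 293 and 311 CPM in the wild-type and knockout aorta, from 256 and 1189 UMIs, and each lung library held a single UMI. The ratio was 388-fold lower in wild-type lung (69.1 to 15393) and 276-fold lower in knockout lung (49.5 to 10930). Cyp1b1 was at 180 and 150 CPM in the aorta and had 2 and 3 UMIs in the lung, 119-fold (32.4 to 992) and 44.4-fold (15.1 to 216) lower there. Cyp4b1 was at 262 and 198 CPM in the aorta and 2084 and 2056 CPM in the lung, 7.95-fold (6.94 to 9.13) and 10.4-fold (9.52 to 11.3) higher there. In the plot of CPM by library the lung and aortic points of these 3 genes and of Hpgd, Slco2a1 and Ptgis lie apart, and those of Ptgs1 and Ptgs2 lie close.

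**Figure D1:**
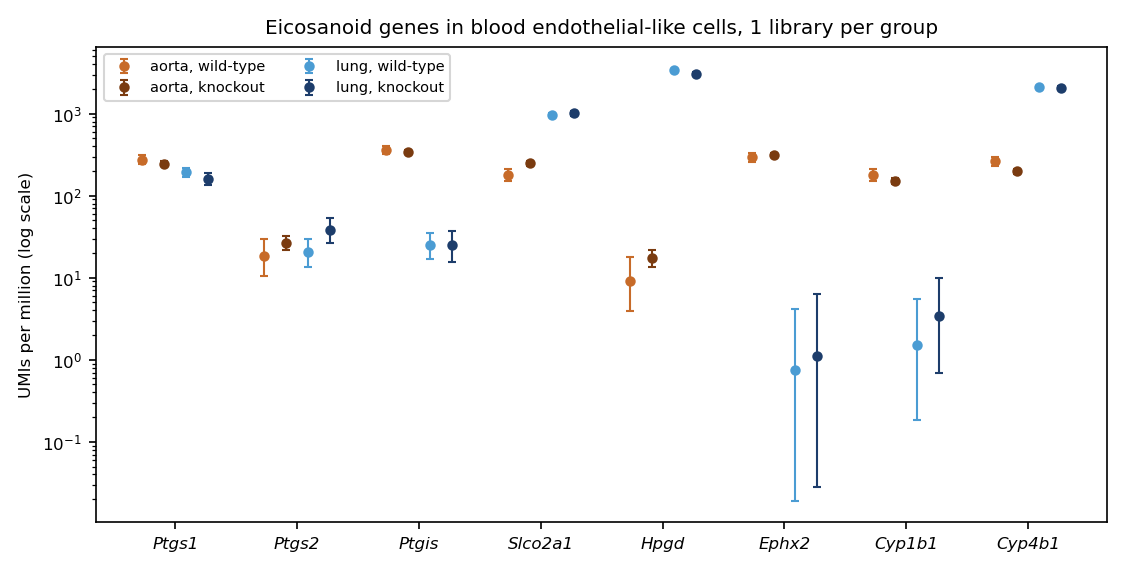
CPM (log axis) of the 8 genes in blood endothelial-like cells of the 4 libraries, with exact 95% counting intervals; each point is 1 library. Hpgd, Slco2a1 and Cyp4b1 are higher in both lung libraries than in both aortic ones, and Ptgis, Ephx2 and Cyp1b1 are lower.

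Set against all genes, 6 of the 7 members with enough UMIs to be compared in the wild-type were at least 2-fold apart between lung and aorta, 3 higher in lung (Hpgd, Slco2a1, Cyp4b1) and 3 lower (Ptgis, Ephx2, Cyp1b1). A gene was compared where its mean over the 2 libraries reached 20 CPM and its UMIs in both together 30. Of all 6045 such genes, 15.3% were higher in lung and 8.42% lower, 23.7% in either direction. In the knockout 8 of 8 members could be compared and the same 6 genes passed 2-fold in the same directions, against 16.1% of 6080 genes higher, 8.62% lower and 24.8% in either. The genes of the 2 comparisons come from different libraries. Under the other scalings run, the median of all genes moved by up to 0.17 on the log2 scale, and the split of all genes in the wild-type moved from 924 higher and 509 lower to 857 and 725, and in the knockout from 981 and 524 to 795 and 653; the directions of these 6 members did not flip under any alternative that gave a value.

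Vessel types, rebuilt from clusters and named by their markers, placed the genes more finely. The aorta held arterial-like cells (260 wild-type, 1077 knockout), cells like tissue capillaries (59 and 104), venous-like cells (37 and 151) and lymphatic-like cells (39 and 192). The lung held general capillary-like cells (414 and 282), aerocyte-like cells (134 and 100), an Esm1-led endothelial cluster left unnamed (75 and 23), venous-like cells (52 and 46), arterial-like cells (29 and 19) and lymphatic-like cells (41 and 19). The members and their pathway genes took no part in choosing the clusters, apart from what other genes share with them. Levels between vessel types are given as descriptions.

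Ptgis, Ephx2 and Cyp1b1 were each highest in the arterial-like cells of the aorta, Ephx2 less sharply than the others in the knockout library. In aortic arterial-like cells Ptgis was at 447 CPM in the wild-type and 392 in the knockout, Ephx2 at 364 and 353, and Cyp1b1 at 224 and 175. In cells like tissue capillaries, the 3 genes together had 1 UMI of Ptgis in the wild-type and 1 UMI of Ephx2 in the knockout. In venous-like cells Ptgis was at 10.6 and 19.97 CPM, 19.6-fold lower than in arterial-like cells of the knockout (9.94 to 45.6). Cyp1b1 had 0 UMIs in wild-type venous-like cells, at least 7.06-fold lower than in arterial-like cells by the limit of 3 counts, and was 23.3-fold lower there in the knockout (7.95 to 114, from 3 UMIs). Venous-like Ephx2 was at 10.6 CPM (1 UMI) in the wild-type and 92.4 CPM (37 UMIs) in the knockout, 34.4-fold (6.12 to 1364) and 3.82-fold (2.76 to 5.46) below arterial-like cells. Knockout lymphatic-like cells had Ephx2 at 57.6 CPM. Across 17 points (aortic clusters of at least 20 cells, each library apart) Pearson's r of log2(CPM + 10) was 0.94 for Ptgis with Cyp1b1, 0.92 for Ptgis with Ephx2 and 0.89 for Ephx2 with Cyp1b1. Over the 11 points of arterial-like clusters alone these r were 0.38, 0.41 and 0.39 (clusters left out after the values were seen), so the likeness lies mainly between arterial-like and other clusters. The points share 2 libraries and differ in depth. The 3 genes were also present in aortic pool cells with no UMI of smooth muscle, pericyte, fibroblast or macrophage markers (147 wild-type and 477 knockout cells). Their levels there were lower: Ptgis at 232 and 220 CPM, Ephx2 at 189 and 185, and Cyp1b1 at 104 and 107. The cells left were shallower, with medians of 1338 and 1775 UMIs against 2079.5 and 2372 in the pool. Cyp4b1, low in arterial-like cells, was higher in them, at 424 and 311 CPM against 262 and 198. The part of depth and of vessel types in these shifts was not tested.

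Ptgs1 followed another order. It was highest in the aortic venous-like cells, at 487 CPM in the wild-type and 439 in the knockout, and lower in arterial-like cells at 272 and 234, a venous to arterial ratio of 1.79 (1.27 to 2.49) and 1.88 (1.59 to 2.22). Cells like tissue capillaries had 37.8 and 30.9 CPM. In the lung, venous-like cells (373 and 391 CPM) came first and general capillary-like cells (271 and 184) next, with intervals that overlap in the wild-type. Aerocyte-like cells had 26.8 and 18.7 CPM, 10.1-fold (5.22 to 22.5) and 9.80-fold (3.70 to 36.7) below general capillary-like cells, and lung arterial-like cells had 1 UMI and 0 UMIs. The capillary types of the lung thus stood apart in Ptgs1.

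Among the endothelial types, Ptgs2 had its highest level in venous-like cells of the lung. Lung venous-like cells held 25 of the 27 Ptgs2 UMIs of the wild-type pool and 31 of the 34 of the knockout pool, at 239 and 282 CPM. They came from 9 of 52 and 8 of 46 cells, and 1 knockout cell held 41.9% of that library's venous-like UMIs. In the aorta arterial-like cells, which are most of the pool, held all 16 UMIs of the wild-type pool and 101 of the 102 of the knockout pool. Aortic venous-like cells had 0 UMIs in both libraries. By the limit of 3 counts this was 4.14-fold or more below arterial-like cells in the knockout, while in the wild-type the limit lies 1.39-fold above the arterial level and allows equal levels. Lung venous-like cells also held 21 of 33 and 10 of 22 UMIs of the lung's Ptgis, at 201 and 91.0 CPM. Ptgis was 16.1-fold (7.08 to 40.0) and 5.06-fold (1.85 to 14.1) higher in these cells than in general capillary-like cells. They also held the few UMIs of Ephx2 (1 and 1) and Cyp1b1 (2 and 3, from 1 and 2 cells) of the lung pools. Wild-type lung pool cells without UMIs of smooth muscle, pericyte, fibroblast or macrophage markers had 0 UMIs of both genes. Such cells of the knockout lung kept 1 UMI of Ephx2 and 2 UMIs of Cyp1b1.

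Hpgd was high in every blood vessel type of the lung and highest in the venous-like cells of the aorta. In the lung it was at 4003 and 3603 CPM in general capillary-like cells, 2999 and 2263 in aerocyte-like cells, 2677 and 2922 in venous-like cells, 2347 and 2436 in the unnamed cluster and 2265 and 1551 in arterial-like cells, wild-type first. General capillary-like cells were highest in both libraries, and the venous and arterial levels of the wild-type had overlapping intervals. Lung lymphatic-like cells had 127 CPM, of which 1 cell held 91.7% of the UMIs, and 22.5 CPM. Detection after thinning was 5.71% and 5.26% of lymphatic-like cells against 91.6% and 92.7% of general capillary-like cells, at median depths of 2335 and 1922 against 1576 and 1673 UMIs. In the aorta, venous-like cells had 63.6 and 94.9 CPM, from 4 of 37 and 24 of 151 cells, and arterial-like cells 2.86 and 8.59 CPM. The ratio was 22.2 (3.98 to 225) in the wild-type and 11.0 (6.60 to 18.7) in the knockout. Aortic capillary-like and lymphatic-like cells had 0 UMIs of Hpgd in both libraries.

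Slco2a1 was high in the capillary-like cells of the lung and spread wider than Hpgd in the aorta. In the lung it was at 1300 and 1001 CPM in the unnamed cluster, 1114 and 1067 in general capillary-like, 872 and 1059 in aerocyte-like, 421 and 801 in venous-like and 270 and 431 in arterial-like cells. The wild-type unnamed and general capillary-like values had overlapping intervals. Its order differed from that of Hpgd, which was lower in the unnamed cluster than in general capillary-like cells. Across 15 lung points r with Hpgd was 0.89, and 0.44 over the 14 points without the lymphatic-like one. In cells thinned to 1000 UMIs, Slco2a1 was detected in 59.6% of cells with Hpgd and 47.9% of cells without in the wild-type lung, and in 60.4% and 61.9% in the knockout lung. In the aorta Slco2a1 was at 381 and 282 CPM in venous-like and 172 and 255 in arterial-like cells, and at 1 UMI per library in cells like tissue capillaries. Aortic capillary-like cells therefore had almost none of the transporter that general capillary-like cells of the lung held at 88.5-fold (15.8 to 3499) and 172-fold (30.8 to 6825) higher levels.

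Cyp4b1 was highest in the aerocyte-like cells of the lung. These had 4717 CPM in the wild-type and 4765 in the knockout, 3.92-fold (3.61 to 4.26) and 3.64-fold (3.30 to 4.02) above general capillary-like cells at 1204 and 1308. The unnamed cluster had 1799 and 1401, arterial-like cells 1116 and 861, and venous-like cells 535 and 755. In the aorta it was at 646 and 617 CPM in venous-like, 554 and 464 in tissue capillary-like, 238 and 85.2 in lymphatic-like and 177 and 134 in arterial-like cells, so arterial-like cells, where Ptgis was highest, were low in Cyp4b1. The venous-like and capillary-like levels of the wild-type aorta had overlapping intervals. Its r in the aorta was -0.58 with Ptgis, -0.62 with Ephx2 and -0.61 with Cyp1b1 over the 17 points, and 0.36, 0.42 and -0.02 over the 11 arterial-like points.

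**Figure D2:**
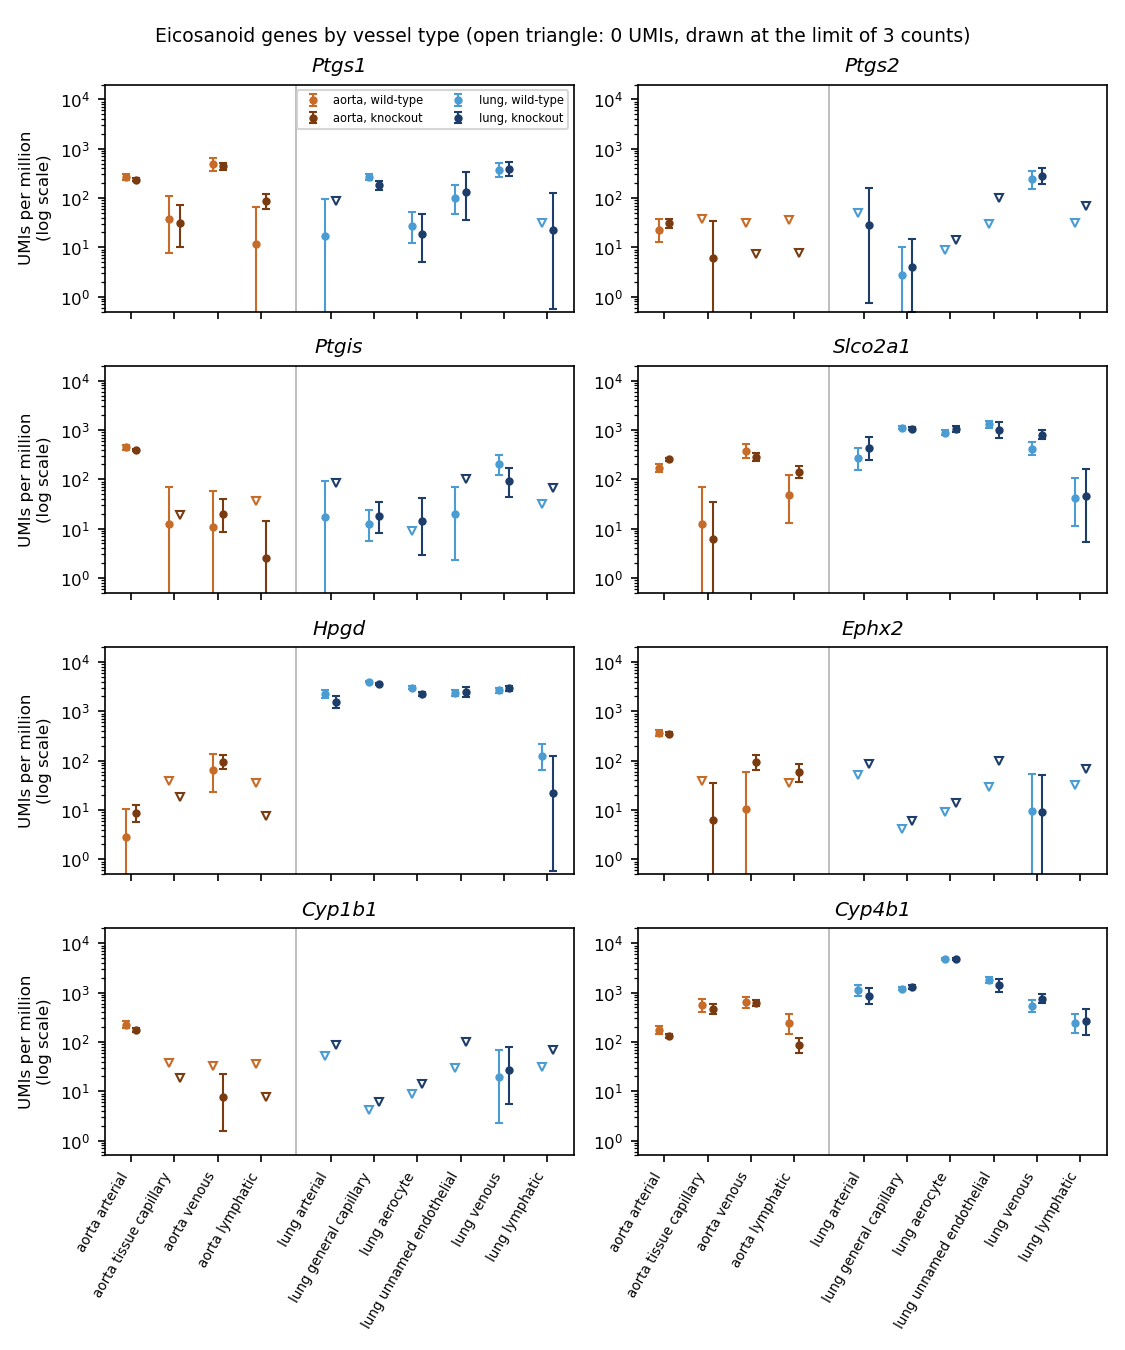
CPM (log axis) of each gene by vessel type, aorta left of the grey line and lung right of it, with exact 95% counting intervals; each point is 1 library, and open triangles are 0 UMIs, drawn at the limit of 3 counts. Hpgd is high in the 5 lung blood vessel types and low in the aorta, Ptgis, Ephx2 and Cyp1b1 peak in aortic arterial-like cells, Ptgs2 in lung venous-like cells and Cyp4b1 in aerocyte-like cells.

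Set type against type, part of the tissue contrast stayed and part did not. Hpgd was higher in lung in arterial-like cells (792-fold, 215 to 6610, from 2 aortic UMIs in the wild-type; 181-fold, 112 to 296, in the knockout). In venous-like cells it was 42.1-fold (19.1 to 116) and 30.8-fold (22.0 to 44.3) higher. Slco2a1 had ratios of 1.58 (0.873 to 2.67) and 1.69 (0.941 to 2.80) in arterial-like cells, intervals that include 1, and in venous-like cells 1.10 (0.694 to 1.76) and 2.84 (2.12 to 3.79). Cyp4b1 was 6.29-fold (4.60 to 8.55) and 6.44-fold (4.29 to 9.33) higher in lung among arterial-like cells, while its venous ratios of 0.829 (0.566 to 1.21) and 1.23 (0.944 to 1.58) include 1. The direction of Ptgis depended on the type. Among arterial-like cells it was lower in lung, 26.5-fold in the wild-type (4.72 to 1049, from 1 lung UMI) and 4.55-fold or more in the knockout (0 lung UMIs). Among venous-like cells it was higher in lung, 19.0-fold (3.05 to 784, from 1 aortic UMI) and 4.56-fold (1.62 to 13.3). Ephx2 and Cyp1b1 had 0 UMIs in lung arterial-like cells, at least 7.19-fold and 4.42-fold below the aortic ones in the wild-type and at least 4.10-fold and 2.03-fold in the knockout. In venous-like cells Ephx2 had 1 UMI in each tissue in the wild-type, and was 10.1-fold (1.71 to 412) lower in lung in the knockout. Venous-like Cyp1b1 had 2 lung and 0 aortic UMIs in the wild-type and 3 of each in the knockout. Capillary-like cells of both tissues had at most 1 UMI of either gene. Ptgs1 was lower in lung arterial-like cells by 16.1-fold (2.85 to 638, from 1 UMI) and at least 2.71-fold. Its level in general capillary-like cells of the lung was 7.18-fold (2.42 to 35.1) and 5.94-fold (2.46 to 18.7) above the aortic capillary-like cells. Aerocyte-like cells had 26.8 and 18.7 CPM (9 and 4 UMIs), against 37.8 and 30.9 CPM (3 and 5 UMIs) in aortic capillary-like cells. These counts are too few to give an order. The venous ratios of Ptgs1, 0.765 and 0.891, had intervals that include 1.

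The arterial-like cells of the aorta were not uniform. Cluster 0, led by Klk10, and cluster 1, led by Thbs1, had the genes at 461 and 433 CPM for Ptgis, 389 and 256 for Ptgs1 and 254 and 336 for Cyp1b1, both libraries summed. Their Ephx2 was at 244 and 427 CPM. Cluster 4, led by Sema3g, was lower than both in Ptgis (239 CPM), Ephx2 (168) and Cyp1b1 (73.7), and had Ptgs1 at 206 CPM. Its Ephx2 interval (127 to 218) overlapped that of cluster 0 (207 to 286). Cluster 10, led by Col8a1 and made of 129 knockout and 10 wild-type cells, combined the lowest arterial Ptgs1 (73.7 CPM) with the highest Slco2a1 (399). Its Ephx2 of 452 CPM (405 to 502) had an interval that overlaps that of cluster 1 (374 to 485), and 1 cell held 36.2% of its Ptgs2 UMIs, which stood at 61.9 CPM. Cluster 6, led by the immediate early genes Fos and Fosb, had Ptgs2 at 45.0 CPM. It held 13 of the 16 Ptgs2 UMIs of the wild-type pool, and clusters 10, 6 and 2 held 46, 34 and 15 of the 102 of the knockout pool. Single cells weighed heavily in this placement. In the wild-type pool 1 cell held 43.8% of the Ptgs2 UMIs, and in cluster 2, both libraries summed, 1 cell held 53.3%. Cluster 10 had a median of 5198 UMIs per cell, above the library medians, and the part of depth in its levels was not tested. Cluster 3 had Cyp1b1 at 433 CPM with both libraries summed, 726 CPM in the wild-type (29 UMIs) and 346 in the knockout, where cluster 1 was close at 330. Its median depth was the lowest of the arterial-like clusters, 1239 UMIs. Its leading genes against all cells held Vwf, a venous marker in the lists used, and the mitochondrial genes mt-Atp8, mt-Cytb and mt-Nd5. Against cells of other types they held 5 arterial markers, among them Gja5 and Bmx, and 0 of another type. Its arterial name thus held only against cells of other types.

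**Figure D3:**
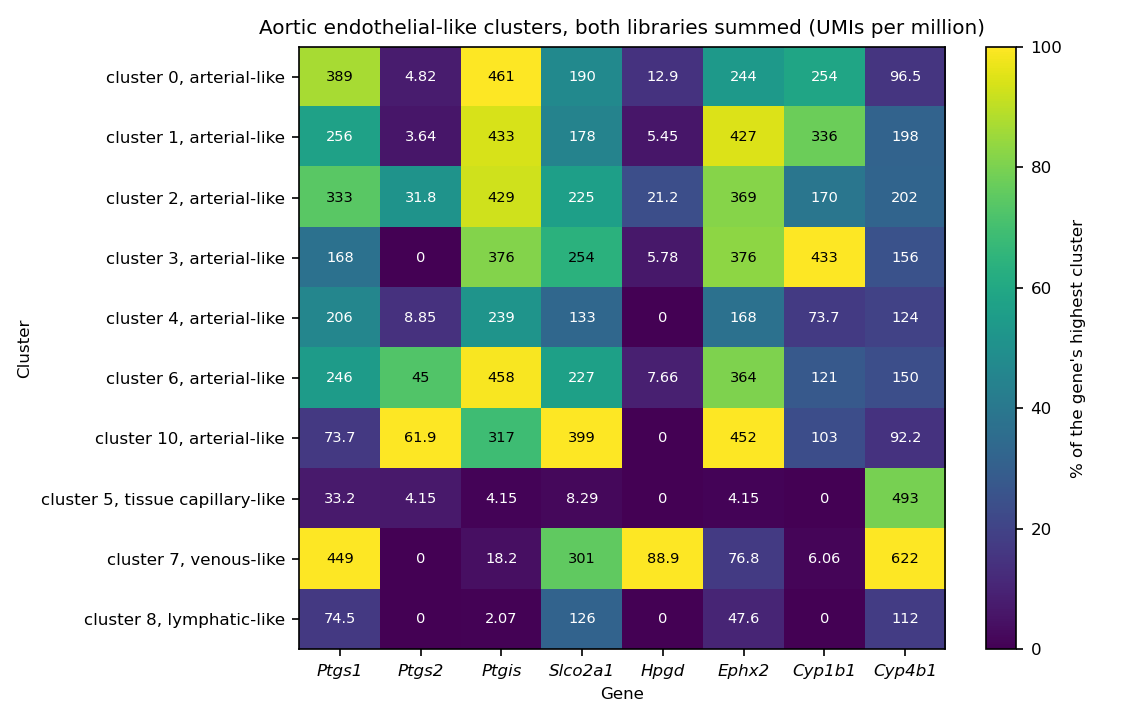
CPM of the 8 genes in the aortic endothelial-like clusters, wild-type and knockout cells summed; numbers give the level and colours the percentage of each gene's highest cluster. Ptgis, Ephx2 and Cyp1b1 are bright only in arterial-like rows, Hpgd, Ptgs1 and Cyp4b1 are highest in the venous-like row, and cluster 10 has low Ptgs1 with high Slco2a1 and Ptgs2.

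Parts of the aortic lymphatic-like cells differed in Cyp4b1. At a finer clustering (Leiden resolution 2) they fell into subcluster 8 with 34 wild-type and 120 knockout cells and subcluster 17 with 5 and 72. Knockout subcluster 17 had Slco2a1 at 233 CPM (166 to 318), Ptgs1 at 191 (131 to 270) and 1 UMI of Cyp4b1. Knockout subcluster 8 had Slco2a1 at 77.8 (46.1 to 123), Ptgs1 at 13.0 (2.67 to 37.9) and Cyp4b1 at 143 (98.1 to 200), from 33 UMIs. Over the whole lymphatic-like group Slco2a1 was 3.01-fold (1.11 to 11.4) and Ptgs1 7.38-fold (1.24 to 300, from 1 wild-type UMI) higher in the knockout library. Ephx2 had 0 wild-type and 23 knockout UMIs there, at least 1.62-fold higher, and Cyp4b1 was 2.79-fold (1.52 to 4.98) lower. Subcluster 17 held 5 of the 39 wild-type and 72 of the 192 knockout cells. Within subcluster 8, Cyp4b1 was at 281 CPM (172 to 434) in the wild-type against 143 in the knockout, and Slco2a1 at 14.0 (1 UMI) against 77.8. Subclusters were looked at after these values were seen.

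Between the Oct4 genotypes no member that could be compared was 2-fold apart at the level of the tissue, as for most genes. Of the 7 members that could be compared in the aorta, 0 were 2-fold apart, where 2.15% of 5766 genes were (0.832% higher and 1.32% lower in the knockout). Of 6 in the lung, 0 were, against 1.58% of 6122 genes (0.947% higher, 0.637% lower). Of all genes compared, 89.9% in the aorta and 90.5% in the lung lay within 1.5-fold. Counts of 0 among so few members do not set them apart from all genes. In the aorta the knockout to wild-type ratio was 1.38 (1.16 to 1.64) for Slco2a1, 0.756 (0.652 to 0.881) for Cyp4b1, 0.834 (0.698 to 1.00) for Cyp1b1 and 1.46 (0.855 to 2.64) for Ptgs2. Ptgis (0.934), Ptgs1 (0.902) and Ephx2 (1.06) lay closer to 1. In the lung it was 0.895 (0.853 to 0.939) for Hpgd, 1.88 (1.10 to 3.23) for Ptgs2, 0.836 (0.676 to 1.03) for Ptgs1, 0.987 for Cyp4b1, 0.994 for Ptgis and 1.03 for Slco2a1. The Ptgs2 intervals take UMIs as independent, but 1 cell held 38.2% of those of the knockout lung. In the wild-type aorta 1 cell held 43.8%. Hpgd in the aorta, at 8 against 66 UMIs, was below the level filter, with a ratio of 1.89 (0.903 to 4.55).

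The 2 ratios of the whole aortic pool with intervals off 1, those of Slco2a1 and Cyp4b1, moved with the cells and weights used. For Slco2a1 the log2 ratio was 0.46, and 0.05 with clusters weighted alike, 0.18 without clusters with under 20 cells in a library and 0.08 without cells holding UMIs of smooth muscle, pericyte, fibroblast or macrophage markers. Cluster 10 gave 300 of the 945 Slco2a1 UMIs of the knockout. Cyp4b1 went from -0.40 to -0.10 and -0.18 with the first 2 of these settings and was at -0.45 with the last. Within cluster 6, Cyp4b1 was 2.24-fold lower in the knockout, at 117 against 264 CPM, and within cluster 1 it was 1.76-fold (1.12 to 2.87) higher, at 233 against 132. Cyp1b1 also went in both directions, with a ratio of 0.48 (0.29 to 0.79) in cluster 3 and 1.86 (1.11 to 3.32) in cluster 6. Ephx2 in venous-like cluster 7 gave 8.72 (1.47 to 354), from 1 wild-type UMI. Over the 6 aortic clusters compared, Cyp4b1 was higher in the knockout in 3 and lower in 3. Ptgis was lower in the knockout in the 4 of 4 aortic clusters with enough UMIs, by ratios of 0.92 to 0.96, each with an interval that includes 1. Over all aortic arterial-like cells the ratio was 0.877 (0.774 to 0.996) for Ptgis and 0.779 (0.652 to 0.936) for Cyp1b1. It was 0.755 (0.617 to 0.929) for Cyp4b1 and 1.49 (1.23 to 1.82) for Slco2a1. The other members had intervals that include 1 there. Tissue capillary-like cells, which the pool also holds, were 14.6% of kept wild-type and 6.63% of kept knockout aortic cells.

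In the lung the small Hpgd ratio was shared by most clusters. It was below 1 in 4 of 6, from 0.75 (0.68 to 0.84) in aerocyte-like cells to 0.93 (0.80 to 1.07) in general capillary-like cluster 6, and 1.09 (0.93 to 1.29) in venous-like cells. Arterial-like cells, too few to enter by cluster, gave 0.685 (0.490 to 0.946). Slco2a1 was 1.90-fold (1.31 to 2.80) higher in knockout venous-like cells, at 801 against 421 CPM from 46 and 52 cells, and 0.958 (0.857 to 1.07) in general capillary-like cells. Ptgs1 in general capillary-like cells was at 184 CPM in the knockout and 271 in the wild-type, a ratio of 0.678 (0.523 to 0.872). By cluster it was 0.86 (0.53 to 1.37) in cluster 1, 0.71 (0.48 to 1.04) in cluster 5 and 0.54 (0.28 to 1.01) in cluster 6. Each of these intervals includes 1. Cluster 1 was led by Atf3 and Hbegf against all cells, with the arterial marker Sox17 also among its leading genes. Against cells of other types these held 5 general capillary markers and 2 arterial ones. The lung Ptgs2 ratio of 1.88 was 1.18 (0.675 to 2.09) within venous-like cells, which made up 9.06% of kept knockout and 6.71% of kept wild-type cells. The plot of ratios shows these values with the 2-fold range around 1.

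**Figure D4:**
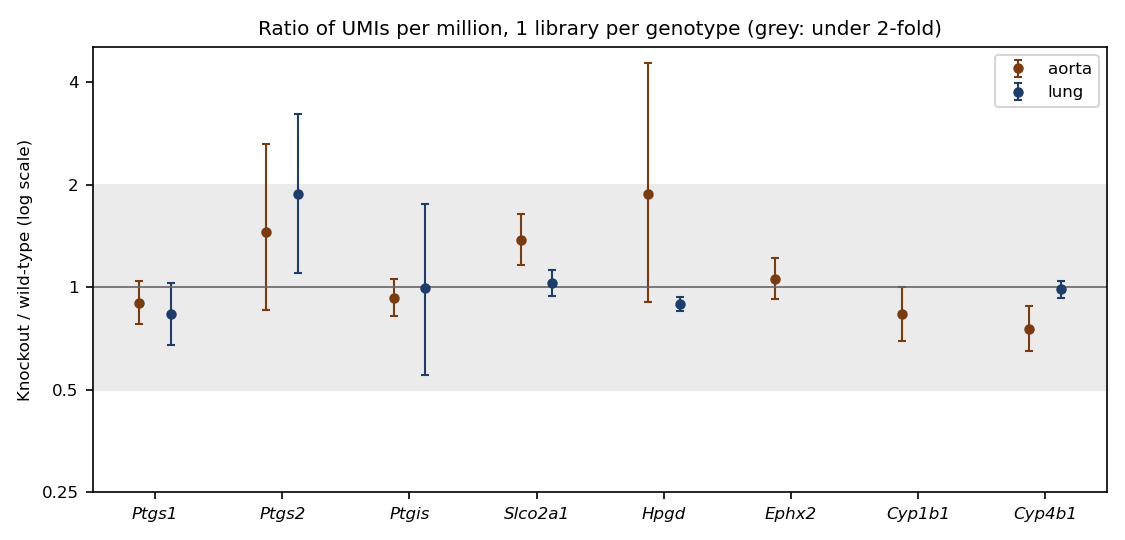
Knockout to wild-type ratio of CPM (log axis) for each gene with at least 30 UMIs, aorta and lung, 1 library per genotype, with exact 95% counting intervals; the grey band is the range under 2-fold. All points lie within the band, and Slco2a1 and Cyp4b1 in the aorta and Hpgd and Ptgs2 in the lung have intervals off 1. Of the Ptgs2 UMIs of the knockout lung, 38.2% came from 1 cell.

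The wider pathway was read from 84 genes in 7 lists covering release of arachidonic acid, prostanoid synthesis, receptors, transport and breakdown, lipoxygenases, P450 and epoxide hydrolases and the aryl hydrocarbon receptor. Between lung and aorta 28 could be compared in the wild-type, with 4 higher and 6 lower in lung by 2-fold or more, and 29 in the knockout, with 6 higher and 8 lower; members are among them. Of all genes compared, 15.3% were higher and 8.42% lower in the wild-type, and 16.1% and 8.62% in the knockout. The median log2 ratio of the listed genes was -0.07 and 0.15, beside 0.15 and 0.17 for all genes compared. Ptger4, a receptor for prostaglandin E, was the 1 receptor of 9 that could be compared, at 64.1 and 51.5 CPM in wild-type and knockout aorta and 2 and 0 UMIs in lung. It was 42.5-fold (11.2 to 359) and at least 15.3-fold lower there. Tbxa2r, the thromboxane receptor, was at 15.1 and 20.3 CPM in lung and at 0 and 1.05 in aorta, and the prostacyclin receptor Ptgir had a single UMI in all 4 libraries.

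Among the aryl hydrocarbon receptor genes, Ahr itself was at 8.01 and 8.63 CPM in the aorta and 119 and 120 in the lung, 14.8-fold (7.01 to 37.4) and 13.9-fold (9.36 to 21.3) higher in lung. Aldh3a1, a target like Cyp1b1, went the other way with 55.0 and 68.6 CPM in aorta and 1 and 0 UMIs in lung. Cyp1a1 and Ahrr, 2 further targets, had 0 UMIs in all libraries, and Tiparp was at 38.9, 24.1, 41.5 and 49.5 CPM, with lung to aorta ratios of 1.07 (0.683 to 1.69) in the wild-type and 2.06 (1.40 to 2.98) in the knockout. Among the other lists, Alox5ap, which presents arachidonic acid to the lipoxygenase Alox5, was at 34.3 and 31.4 CPM in aorta and 7.55 and 4.50 in lung, and Alox5 itself had 0 UMIs. Mgst3 was 1.95-fold and 2.32-fold lower in lung, and Pla2g16 1.83-fold and 2.20-fold. Cyp2d22 was 1.66-fold and 2.56-fold higher.

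Between the genotypes, 2 of 28 listed genes in the aorta were 2-fold apart and 0 of 24 in the lung, beside 2.15% and 1.58% of all genes compared. Pla2g4a, the cytosolic phospholipase that frees arachidonic acid, was at 10.3 CPM in wild-type and 37.7 in knockout aorta, 3.66-fold higher (1.87 to 8.16). Slco2b1, a related uptake carrier, was at 32.1 and 13.9 CPM, 2.31-fold lower (1.41 to 3.72). In the lung the most abundant listed genes beside the members were Mgst3 (205 and 163 CPM) and Mgll (153 and 183 CPM), the latter a lipase for arachidonoyl glycerol.

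Each member's nearest genes were taken over 32 points, 15 lung and 17 aortic clusters per library, among 3234 genes of at least 50 CPM on average; all points come from 4 libraries and differ in depth. Hpgd was most like Foxf1, a forkhead factor of lung endothelium, with r 0.98, then Calcrl and Tmem100. Foxf1 did not vary over the aortic points, and r with it was 0.93 over the 15 lung points and 0.53 over the 14 without the lymphatic-like one. Cyp4b1 was most like Tspan13 (r 0.92), Tmem204 and Adgrf5, and Slco2a1 most like Ghr (0.87), Ehd4 and Itm2b. The 32 points span both tissues, and some r were lower within a tissue. Over the 14 lung points, Slco2a1 had r 0.07 with Ghr, 0.29 with Ehd4 and 0.74 with Itm2b. Hpgd had r 0.38 with Calcrl over these points, and 0.04 with Tmem100 over the aortic points. Ptgis was nearest to Spon1 (0.93), Ptprj and Gxylt2, Ephx2 to Nt5e (0.97), Gxylt2 and Mfap5, and Cyp1b1 to Gxylt2 (0.95), Adh7 and Sod3. Gxylt2 thus stood in the list of Ptgis, Ephx2 and Cyp1b1 alike. Ptgs1 was nearest to Myrip (0.83), Entpd1 and Vwf, the last 2 known from platelet control at the vessel wall, and Ptgs2 to Ch25h (0.82), Slc6a2 and Tagln. Ptgs2 with Slc6a2 had r 0.98 over the 15 lung points and -0.23 over the 17 aortic ones. For Ephx2 with Mfap5 these were 0.18 and 0.94. Mfap5 and Tagln are among the fibroblast and smooth muscle markers used, and Slc6a2 and Vwf among the venous ones.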

How the data were processed

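Single-cell RNA of sorted eYFP-positive cells was measured in 4 libraries. The files deposited by the authors hold UMI counts of each gene in each barcode, as whole numbers. Cell Ranger and the build mm10 are named in the submitters' processing notes. Its version and annotation were not given in the sources used here. The aortic matrices name genes by symbol. The lung matrices give Ensembl identifiers, of which 31011 matched GENCODE M21 and 42 did not, and genes were compared between tissues only where both have the symbol (30518). Rows of 1 symbol were summed (36 in the aorta, 37 in the lung).

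Cells with fewer than 500 UMIs or over 15% of UMIs from mitochondrial genes were dropped, which took 45 and 54 cells from the aortic libraries (wild-type, knockout) and 25 and 21 from those of the lung. Doublets were not called and free RNA was not corrected for. Cells were clustered per tissue with scanpy 1.11.5 (2000 variable genes without the pathway lists, 30 principal components, 15 neighbours, Leiden resolution 1). Clusters were named from marker lists; no annotation by the authors was used, so names can differ from theirs. One aortic (3) and 1 lung cluster (1) kept their name only against cells of other types, and values without both were computed. UMIs were added up over the cells of a library and scaled by their total there (CPM). CPM carry exact Poisson, ratios exact conditional and shares Clopper-Pearson 95% intervals (scipy 1.17.1); a count of 0 was set to a limit of 3 counts. Ratios and intervals were tested on simulated counts.

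Members and lists were chosen with earlier results of these data known. Named beside the members were listed genes at least 2-fold apart, or otherwise the most abundant of a list, and the 3 genes most correlated with each member. Promoter sequences are from RefSeq (GRCm38.p6); the motifs were chosen after the promoters were seen. Alternatives changed the cells, depth, scaling, filter, weights and clustering.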

Additional observations from a re-analysis of the deposited data

Results flagged for a closer look

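Outside the endothelial cells, 4 levels were seen in cells that entered no comparison and exceeded what a count of 0 would permit. Ptgis was at 1381 CPM in the 17 smooth muscle-like cells of the knockout aorta (1172 to 1617), beside 392 CPM in arterial-like cells of the same library. In aortic cells of the blood endothelial-like pool without any UMI of smooth muscle, pericyte, fibroblast or macrophage markers, Ptgis was at 232 CPM in 147 wild-type and 220 CPM in 477 knockout cells. Those cells were shallower than the pool, with median depths of 1338 and 1775 UMIs. Ptgis was also at 741.8 CPM in 14 fibroblast-like cells of the wild-type lung, where 1 cell held 46.7% of its UMIs. Ptgs2 was at 148.4 CPM in the same fibroblast-like cells, from 6 UMIs in 2 cells. Hpgd was at 134.6 CPM in 13 macrophage-like cells of the knockout aorta, from 7 UMIs in 4 cells. In that library arterial-like cells had 8.59 CPM and venous-like cells 94.9 CPM. The 7 UMIs are too few to order the macrophage-like and venous-like levels. These cells passed a gate for eYFP and are few, and the part of doublets and free RNA was not tested.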

How the results depend on the processing

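The tissue differences of Hpgd, Slco2a1, Cyp4b1, Ptgis, Ephx2 and Cyp1b1 kept their direction and stayed past 2-fold under all of the 11 to 15 alternatives that gave a value for each. Counts of genes 2-fold apart moved with the filter. For knockout against wild-type aorta the count was 124, and 38 at a mean of at least 50 CPM, 495 with no CPM filter, 327 with cells thinned to 1000 UMIs, 188 with the mean of per-cell CPM and 358 without cells holding UMIs of other cell types' markers. For the lung it was 97, and 21 and 193 with the 2 filters, 159 with per-cell CPM, 216 with clusters weighted alike and 146 without clusters led against their name. For lung against aorta it was 1433 in the wild-type, 792 at 50 CPM, and 1505 in the knockout, 832 at 50 CPM and 2527 with no filter. Why was not tested, apart from the change in genes tested. The Ptgs2 ratios turned on few cells: knockout against wild-type aorta ran from -2.14 to 1.38 on the log2 scale. Leaving out clusters with under 20 cells in a library, cells with other types' markers and clusters led against their name were added after the data were seen. No paired analysis was possible because each group has 1 library. Low counts limit the precision of the Ephx2 and Cyp1b1 levels in lung, where 1 to 3 UMIs carry each value. Cells of 1 library are not replicates.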
